A study of Homo sapiens with 2 samples.

Results

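NFE2L2, KEAP1, GCLC, GCLM, SLC7A11, TXNRD1, SRXN1, ME1 and HMOX1 were examined in C4-2B cells, a human castration-resistant prostate cancer (CRPC) line. These 9 genes of the NRF2 and glutathione antioxidant system were taken by symbol from the 60671 genes of the count table, and all 9 had at least 10 counts over both libraries. The study was concerned with the tyrosine kinase ACK1 in immune regulation, and these cells were sequenced to survey cytokine expression, not antioxidant genes. A vehicle-treated sample was compared with a sample given (R)-9b, a small-molecule ACK1 inhibitor, at 1 µM overnight according to the sample labels, with a single library of polyadenylated RNA for each. Both samples were of the same cell line, and the labels give no difference between them other than this treatment. The solvent used as vehicle in this experiment was not given in the sources used here. With 1 library per condition there is no replicate check, so each difference below compares these libraries and not the conditions.

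NRF2, the product of NFE2L2, is a transcription factor that is held at a low level by KEAP1, an adaptor that delivers it for ubiquitination and degradation. Oxidants and electrophiles modify cysteines of KEAP1, NRF2 then escapes degradation, and with a small MAF partner it binds antioxidant response elements (AREs) near its target genes. Because this control acts mostly on protein stability, the amount of NFE2L2 or KEAP1 transcript is not a measure of NRF2 activity. The targets studied here import cystine (SLC7A11), make glutathione (GCLC and GCLM), reduce thioredoxin (TXNRD1), repair oxidized peroxiredoxins (SRXN1), supply NADPH (ME1) and break down haem (HMOX1). SLC7A11 and several genes of amino acid supply are also targets of ATF4, the transcription factor of the integrated stress response.

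Most of these genes had lower values in the (R)-9b library. SLC7A11 and HMOX1 were each about 3-fold lower. GCLC, TXNRD1, ME1, NFE2L2 and GCLM were lower by smaller amounts, with log2 ratios of (R)-9b over vehicle between -0.49 and -0.33. KEAP1 did not differ between the libraries beyond counting error, and SRXN1 was slightly higher in the (R)-9b library. By a 95% interval for counting error that lay wholly below 0 on the log2 scale, 7 of the 9 genes were lower, a call made for 31.1% of the 23446 genes tested. By an interval wholly above 0, 1 of 9 was higher, a call made for 29.8% of genes tested. Beyond 2-fold, 2 of 9 were lower and 0 of 9 were higher, beside 9.53% and 11.5% of genes tested. Among the 11862 genes with at least 500 counts, a group more like these 9 in depth, 43.7% were lower and 36.7% higher by the interval, and 3.48% were lower and 3.19% higher beyond 2-fold. The median log2 ratio was -0.45 over the 9 genes and -0.0049 over all genes tested. The 9 genes were chosen by name with earlier results of these data known, so these counts describe them and are not a test.

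The libraries held 65207444 counts (vehicle) and 57653965 counts ((R)-9b). Mitochondrially encoded genes took 1.49% of counts in vehicle and 9.54% in (R)-9b, and the part of this difference in the ratios below was not tested, except that a scaling without those genes changed no call among the 9. The labels name the cells as breast cancer. All 7 prostate markers were detected, with a summed level of 4578 scaled CPM (CPM with the library total scaled by TMM, the trimmed-mean method of edgeR) in vehicle and 8982 in (R)-9b, whereas 2 of 5 breast markers had at least 10 counts over both libraries. The breast markers summed to 13.8 scaled CPM in vehicle and 9.21 in (R)-9b, nearly all of it TRPS1 (906 and 516 counts). PGR had 10 and 2 counts, ESR1 had 2 in each library, and SCGB2A2 and ANKRD30A had 0 in both. Of 6 markers of leukocytes and macrophages, cells that also make HMOX1, 2 had at least 10 counts over both libraries, PTPRC had 0 counts in each, and the summed level was 0.406 scaled CPM in vehicle and 0.797 in (R)-9b. Of 4 fibroblast markers 2 passed that minimum, with a summed level of 19.5 scaled CPM in vehicle and 39.2 in (R)-9b that was mostly COL1A1, and 2 of 3 endothelial markers did, at 11.7 and 7.65 scaled CPM. In bulk RNA, fewer cells that express a gene and less of its RNA per cell cannot be told apart.

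The ARE is the sequence through which these genes are linked to NRF2, so promoters were searched for its core. RefSeq promoter windows (GRCh38.p14, 250 bases before to 50 after a start site) were at hand for 7 of the 9 genes, in 10 windows. No window was at hand for HMOX1 and SLC7A11. The core, written TGACNNNGC and searched on both strands, was found in 5 of the 10 windows and in 4 of the 7 genes, KEAP1, GCLM, TXNRD1 and ME1. It was found in 13.3% of all 35116 promoter windows of the same length. Of the 6 matches that lay upstream of a start, 5 are printed here, because they are the parts of these promoters that carry the letters NRF2 is known to recognise. Capitals mark the match, each sequence is given 5′ to 3′ on the strand of the gene, and a match that begins with GC is the core read on the opposite strand.
GCLM, chr1:93909440-93909480, minus strand: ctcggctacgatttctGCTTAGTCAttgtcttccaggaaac
TXNRD1, chr12:104286914-104286954, plus strand: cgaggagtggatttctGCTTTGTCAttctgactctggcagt
ME1, chr6:83431164-83431204, minus strand: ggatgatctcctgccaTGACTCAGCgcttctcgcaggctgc
KEAP1, chr19:10502801-10502841, minus strand: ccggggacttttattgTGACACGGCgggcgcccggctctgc
KEAP1, chr19:10502778-10502818, minus strand: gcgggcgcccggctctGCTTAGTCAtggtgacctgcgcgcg

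The match ended 26 bases upstream of the RefSeq start in GCLM, 94 bases in TXNRD1 and 129 bases in ME1. Not every TXNRD1 transcript begins at that start (chr12:104287032). TXNRD1-205 begins at 104286682 and TXNRD1-214 at 104286881, both before the match. They had 4197 and 1632 estimated counts in vehicle, and for these transcripts the match lies downstream of the start. In KEAP1 both matches lay in the same window, ending 46 and 23 bases upstream of its start. KEAP1 has a further RefSeq window, upstream at chr19:10503307-10503606, that held no match. For transcripts that begin at the start of that window, both matches lie downstream. TXNRD1 has a further RefSeq start 71253 bases upstream of this window's start. Its window also held the core, not printed here, and the 2 listed transcripts that begin there had 0 estimated counts in both libraries. The windows of NFE2L2, GCLC and SRXN1 did not hold these letters, which says nothing of elements elsewhere at these genes. The ratios of genes with and without a match overlapped. With a match, GCLM, TXNRD1 and ME1 had log2 ratios of -0.33, -0.46 and -0.45 and KEAP1 had -0.0047. Without one, NFE2L2 had -0.34, GCLC -0.49 and SRXN1 0.27. A composite site of C/EBP and ATF factors, written TGATGNAA and searched on both strands, was in 0 of the 10 windows and in 3.62% of all windows. With so low a share over all windows, 10 windows are too few for their lack of a match to say anything of these genes. SLC7A11 and HMOX1 had no window and were not searched.

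NFE2L2 encodes NRF2 itself (chr2:177227595-177392697, GRCh38, minus strand). It had 5009 counts in vehicle and 3360 in (R)-9b. After TMM scaling the ratio was 0.791 and the log2 ratio -0.34 (exact 95% interval -0.40 to -0.27). The interval covers counting error only, and PCR copies cannot be told from separate molecules. Of the exon bases of NFE2L2, 20.9% are shared with other annotated genes. The largest share belongs to AC019080.1, which had 10 counts in each library. By estimated transcript counts, NFE2L2-201 held 92.7% of the gene in vehicle and 90.2% in (R)-9b, and its log2 ratio was -0.35 (95% interval -0.45 to -0.25).

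KEAP1, the inhibitor of NRF2 (chr19:10486120-10503741, minus strand), had 12541 counts in vehicle and 10601 in (R)-9b. Its log2 ratio was -0.0047 (95% interval -0.04 to 0.03), so a difference was not detectable with TMM scaling. With scaling by total counts, which moves every log2 ratio by -0.06, the interval became -0.10 to -0.03. The log2 ratio of NFE2L2 was lower than that of KEAP1 by 0.33 (difference -0.33, 95% interval -0.41 to -0.26), a difference within each library that no scaling alters. Of the 10 KEAP1 transcripts stated, 9 were in the transcript table, and their estimated counts came to 26.4% of the halved gene counts in vehicle and 27.2% in (R)-9b, so transcript values speak for a minority of KEAP1 reads. KEAP1-202, the most abundant of those listed, had 1064 estimated counts in vehicle and 923 in (R)-9b, a log2 ratio of 0.04 (95% interval -0.09 to 0.17).

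**Figure D1:**
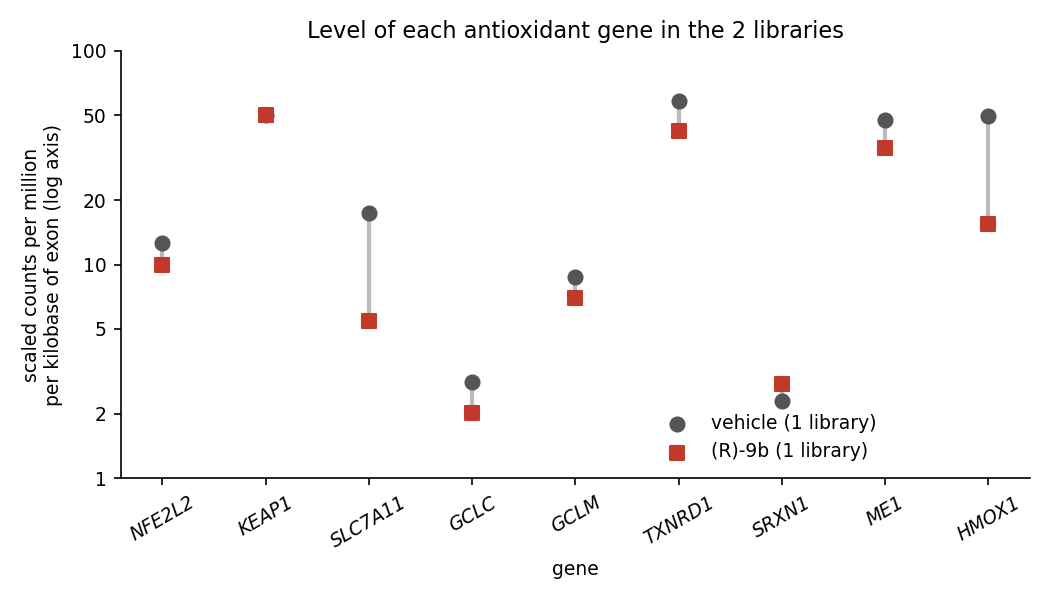
Level of each gene as scaled CPM per kilobase of merged exon, on a log axis, in the vehicle library (grey circles) and the (R)-9b library (red squares), 1 library each, ordered by role from regulators to haem breakdown. TXNRD1, KEAP1, HMOX1 and ME1 lie between 47.6 and 58.2 in vehicle, and only SLC7A11 and HMOX1 are separated by more than 2-fold between the libraries.

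SLC7A11 is the transporter subunit of the cystine/glutamate antiporter and brings in the cystine from which the cysteine of glutathione is made (chr4:138164097-138242349, minus strand). It had 11132 counts in vehicle and 2966 in (R)-9b. Scaled per length, its level was 17.3 in vehicle and 5.45 in (R)-9b, in scaled CPM per kilobase of exon. The value was 3.18-fold lower in (R)-9b (log2 ratio -1.67, 95% interval -1.73 to -1.61), and 4.59% of all genes tested had a lower ratio. Its antisense gene SLC7A11-AS1, which shares 865 of the 9645 exon bases, had 32 counts in vehicle and 1 in (R)-9b. The strand setting of the counting was not given in the sources used here, so reads of the pair in the shared bases cannot be told apart, but the antisense counts were small beside those of SLC7A11. SLC7A11-201 held 100% of the estimated transcript counts in vehicle and 99.7% in (R)-9b, with a log2 ratio of -1.67.

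SLC7A11 works only as a heterodimer with SLC3A2, the heavy chain that carries it to the membrane. SLC3A2 had 42642 counts in vehicle and 10862 in (R)-9b, a log2 ratio of -1.74 (95% interval -1.77 to -1.70). Transcript counts for both chains of the antiporter were thus more than 3-fold lower in the (R)-9b library, and protein was not measured here.

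GCLC and GCLM are the catalytic and the modifier subunit of glutamate-cysteine ligase, the rate-limiting enzyme of glutathione synthesis. GCLC (chr6:53497341-53616970, minus strand) had 1625 counts in vehicle and 984 in (R)-9b, a log2 ratio of -0.49 (95% interval -0.60 to -0.37). GCLM (chr1:93885205-93909456, minus strand) had 3169 and 2135 counts, a log2 ratio of -0.33 (95% interval -0.41 to -0.25). Both subunits were lower. By full counts GCLC was lower by slightly more, with a difference in log2 ratio of -0.15 (95% interval -0.29 to -0.01). This interval ends near 0 and would be wider if both mates of each read pair were counted. It was not computed with halved counts, so the difference between the subunits is uncertain. Per length, GCLM exceeded GCLC in each library, at 8.78 against 2.82 scaled CPM per kilobase in vehicle and 6.98 against 2.02 in (R)-9b. The ratio of SLC7A11 was lower than that of GCLC by 1.18 on the log2 scale (difference -1.18, 95% interval -1.31 to -1.06), so these transcripts were not lower to the same degree.

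Transcripts of GCLM did not share its ratio equally. GCLM-201 had 860 estimated counts in vehicle and 510 in (R)-9b (log2 ratio -0.50, 95% interval -0.66 to -0.34), whereas GCLM-204 had 271 and 236 (log2 ratio 0.05, 95% interval -0.21 to 0.30). GCLM-201 thus held 74.6% of the gene's estimated counts in vehicle and 66.4% in (R)-9b. In GCLC, GCLC-213 had 171 estimated counts in vehicle and 22.2 in (R)-9b, while GCLC-207 had 0 and 76.5. GCLC-214 and GCLC-212, the other abundant forms, had log2 ratios of -0.38 and -0.40. Estimates of transcripts that share most exons carry an assignment error that these intervals do not hold.

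TXNRD1 is cytosolic thioredoxin reductase, a selenoprotein that uses NADPH to keep thioredoxin reduced (chr12:104215779-104350305, plus strand). It was the most abundant of the 9 genes per length in vehicle. Counts were 25984 in vehicle and 16023 in (R)-9b, a log2 ratio of -0.46 (95% interval -0.49 to -0.43). Its main listed transcripts were lower to different degrees. TXNRD1-205 had 4197 estimated counts in vehicle and 2905 in (R)-9b (log2 ratio -0.28), and TXNRD1-206 and TXNRD1-214 had log2 ratios of -0.28 and -0.30. TXNRD1-219 had 719 and 362 (log2 ratio -0.74, 95% interval -0.93 to -0.56). TXNRD1-212 had 1029 and 327 (log2 ratio -1.41, 95% interval -1.59 to -1.22), so its share of the estimated counts was 11.3% in vehicle and 5.73% in (R)-9b. Of the 24 TXNRD1 transcripts stated, 23 were in the table.

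SRXN1, sulfiredoxin, reduces overoxidized peroxiredoxins and was the only one of the 9 genes whose interval lay above 0 (chr20:646615-653370, minus strand). It had 415 counts in vehicle and 423 in (R)-9b, a log2 ratio of 0.27 (95% interval 0.07 to 0.46). This is the least certain value of the set. Of its 2698 exon bases, 2292 (85.0%) are shared with AL121758.1, a gene on the same strand that had 28 counts in vehicle and 53 in (R)-9b, and reads in shared bases are left out when only unambiguous reads are counted. The estimated counts of SRXN1-201, which do not leave out those reads, were 2791 in vehicle and 2591 in (R)-9b, a log2 ratio of 0.14 (95% interval 0.06 to 0.22). This value was added after the overlap had been seen. If both mates of each read pair were counted, the gene counts are to be halved, and the interval then ran from -0.02 to 0.55.

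**Figure D2:**
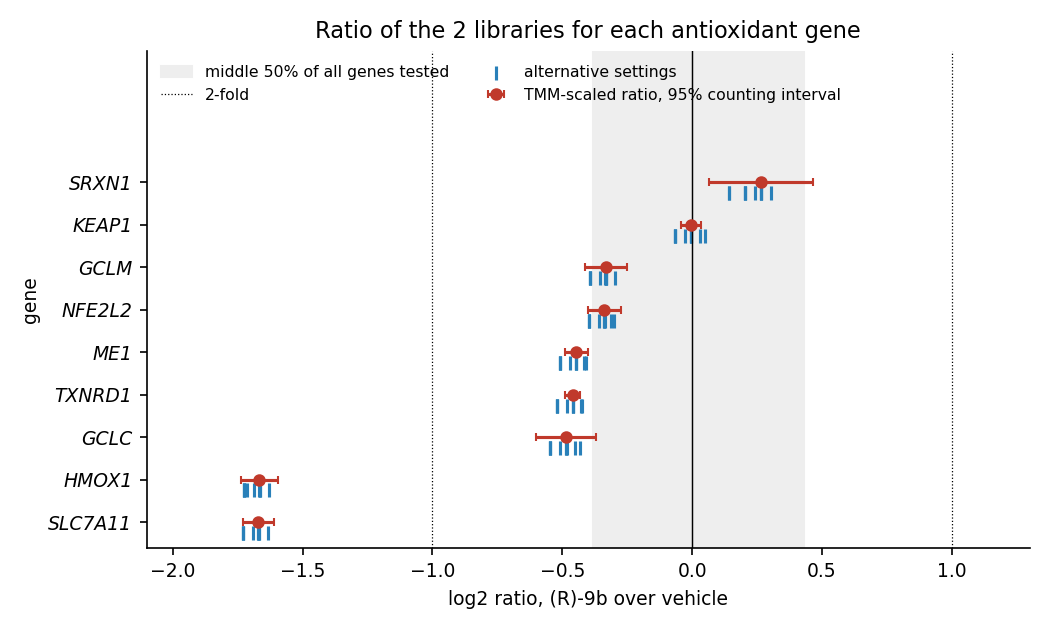
Log2 ratio of (R)-9b over vehicle for each gene (red points) with its exact 95% interval for counting error (bars), the values under other scalings and tables (blue ticks), and the middle 50% of all genes tested (grey band, -0.38 to 0.43). SLC7A11 and HMOX1 lie past the dotted 2-fold line under every setting drawn, 5 genes lie between -0.49 and -0.33, KEAP1 lies at 0, where its settings fall on both sides, and SRXN1 lies above 0.

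ME1, cytosolic malic enzyme, makes NADPH from malate (chr6:83210389-83431071, minus strand). It had 10682 counts in vehicle and 6644 in (R)-9b, a log2 ratio of -0.45 (95% interval -0.49 to -0.40). The deposited transcript table lists a single form, ME1-201, with 3592 and 2267 estimated counts (log2 ratio -0.42). ME1 and TXNRD1, the maker and a user of NADPH, differed by -0.01 in log2 ratio (TXNRD1 minus ME1, 95% interval -0.06 to 0.04), and TXNRD1 and GCLC by 0.03 (95% interval -0.09 to 0.14). These intervals do not show the genes to be regulated alike.

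HMOX1, heme oxygenase 1, opens the haem ring to give biliverdin, carbon monoxide and iron (chr22:35380361-35394214, plus strand). Counts were 7897 in vehicle and 2110 in (R)-9b. Its level was 49.3 scaled CPM per kilobase in vehicle, close to KEAP1 (50.1) and ME1 (47.6), and 15.5 in (R)-9b, well below both. It was 3.17-fold lower (log2 ratio -1.67, 95% interval -1.74 to -1.60), and 4.64% of all genes tested had a lower ratio. The difference between HMOX1 and SLC7A11 in log2 ratio was 0.0041 (95% interval -0.09 to 0.09). HMOX1-201 held 96.9% of the estimated counts in vehicle and 96.3% in (R)-9b, so the difference was carried by the main coding transcript. No exon of HMOX1 overlaps another annotated gene.

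Ordered by level per length, vehicle ran from TXNRD1 (58.2 scaled CPM per kilobase) through KEAP1, HMOX1 and ME1 to SLC7A11 (17.3), NFE2L2 (12.6), GCLM (8.78), GCLC (2.82) and SRXN1 (2.31). In (R)-9b the order was KEAP1 (49.9), TXNRD1 (42.3), ME1 (34.9), HMOX1 (15.5), NFE2L2 (9.95), GCLM (6.98), SLC7A11 (5.45), SRXN1 (2.78) and GCLC (2.02). SLC7A11 thus moved from above NFE2L2 and GCLM to below both, and TXNRD1 and KEAP1 exchanged the first place. Without replicates, neighbours in this order have no spread against which to be compared, and the level of SRXN1 is understated because most of its exon bases are shared.

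**Figure D3:**
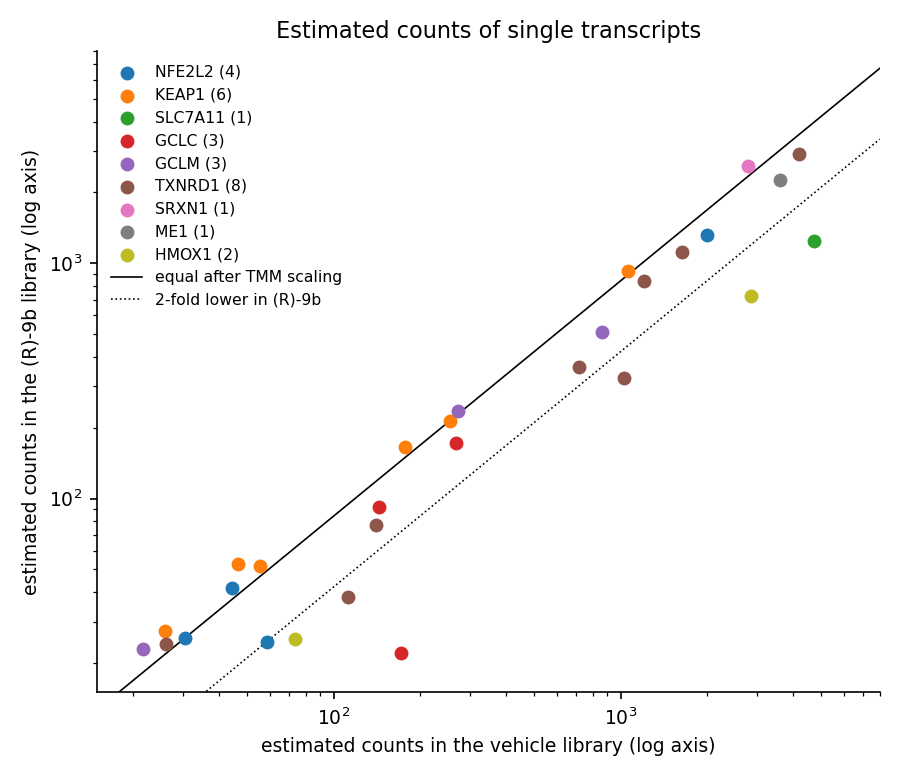
Estimated counts of the 29 transcripts of the 9 genes with at least 20 estimated counts in each library, vehicle on the x axis and (R)-9b on the y axis, both log axes, with the number of transcripts per gene in brackets. KEAP1 transcripts and SRXN1-201 lie on or just above the line of equal scaled counts, whereas SLC7A11-201, HMOX1-201, TXNRD1-212 and GCLC-213 are among those below the line of 2-fold lower.

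Other genes of the same pathways were described from 9 lists that together hold 127 genes (CHAC1 is in both the ATF4 and the glutathione synthesis list). Their counts are to be read beside all genes tested, of which 29.8% were higher and 31.1% lower, with a median log2 ratio of -0.0049. Among genes with at least 500 counts 36.7% were higher and 43.7% lower. The NRF2 control list lay near these latter shares, and no list was tested against them. Of the 15 genes of NRF2 control, 5 were higher, 7 lower and 3 had an interval including 0, with a median log2 ratio of -0.13. SQSTM1, the autophagy receptor p62 that sequesters KEAP1 and is itself an NRF2 target, had 57064 counts in vehicle and 23177 in (R)-9b (log2 ratio -1.06). MAFF, a small MAF partner, had 619 and 119 counts (log2 ratio -2.14). BACH1, a repressor that competes with NRF2 for AREs and is known for holding HMOX1 down, had 1954 and 965 counts (log2 ratio -0.78). DPP3 and PGAM5, which bind KEAP1, had log2 ratios of 0.56 and 0.45. The small MAF partners did not share a direction. MAFG was lower (log2 ratio -0.67) and MAFK, with 3521 counts in vehicle and 3375 in (R)-9b, was higher (log2 ratio 0.18, 95% interval 0.11 to 0.25), both of them named after their values were seen.

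In glutathione synthesis and cystine uptake 6 of 13 genes were higher and 7 lower, with a median log2 ratio of -0.18, and without the members 6 of 10 were higher and 4 lower. The lower genes included CTH, cystathionine gamma-lyase, which makes cysteine from cystathionine (3002 counts in vehicle and 698 in (R)-9b, log2 ratio -1.87). CHAC1, which degrades glutathione, was lower too, with 5660 and 1238 counts (log2 ratio -1.96). GSS, the last enzyme of glutathione synthesis, had a log2 ratio of 0.12. GGT1, which splits extracellular glutathione, had 58 and 120 counts (log2 ratio 1.29), and OPLAH, which opens 5-oxoproline to glutamate, had a log2 ratio of 1.04. CHAC2, a paralog of CHAC1 that also degrades glutathione, was higher (208 and 263 counts, log2 ratio 0.58), as was CBS, which makes cystathionine (log2 ratio 0.55), and both were named after their values were seen. Enzymes of the same step or of neighbouring steps thus lay on both sides of 0.

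In glutathione use and recycling 12 of 23 genes tested were higher and 5 lower, with a median log2 ratio of 0.15. GSR, glutathione reductase, had 21816 counts in vehicle and 22398 in (R)-9b (log2 ratio 0.28, 95% interval 0.25 to 0.30). GPX4, the glutathione peroxidase of lipid hydroperoxides, had a log2 ratio of 0.02 (95% interval -0.0029 to 0.04), so no difference was detectable with TMM scaling. This depends on the scaling. Total counts, which move every log2 ratio by -0.06, place the interval of GPX4 below 0, and upper quartile scaling places it above 0. GLRX, glutaredoxin, was higher, with 641 and 1731 counts (log2 ratio 1.67), as was MGST2 (0.51), while GPX3 (114 and 51 counts, log2 ratio -0.92) and GSTZ1 (-0.47) were lower.

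**Figure D4:**
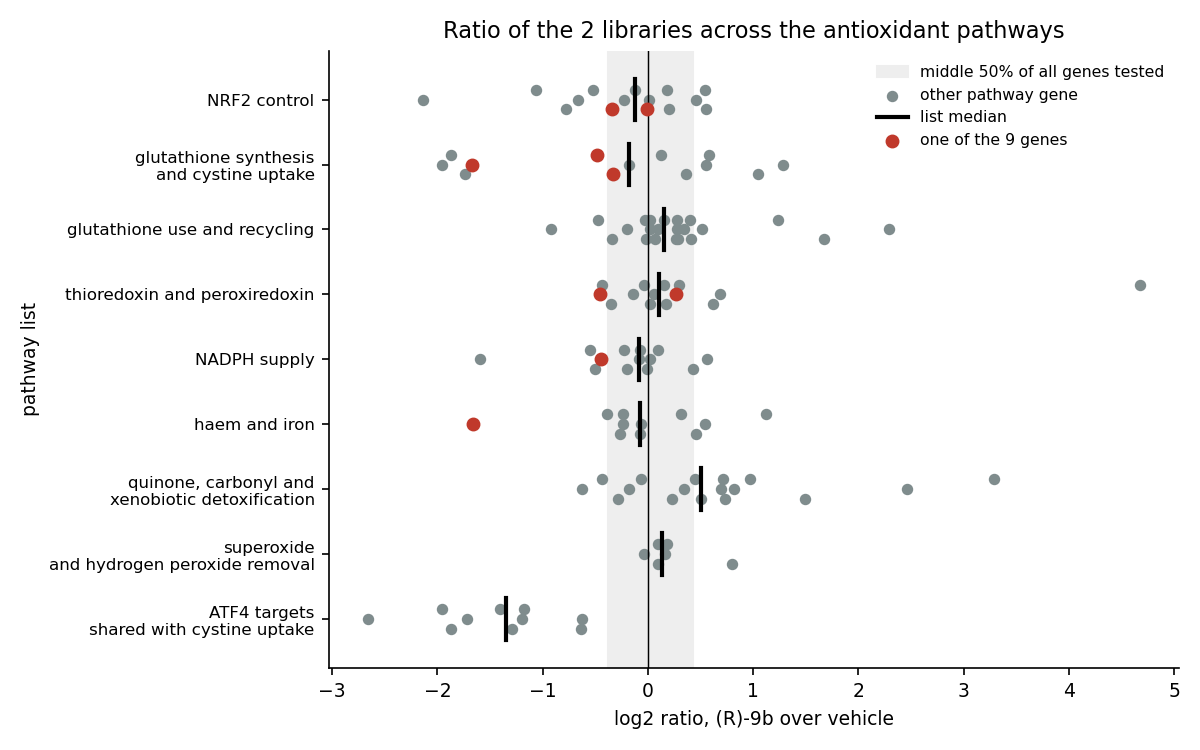
Log2 ratio of (R)-9b over vehicle for each tested gene of the 9 pathway lists, with the 9 genes in red, other genes in grey, the median of each list as a black bar and the middle 50% of all genes tested as a grey band. GPX7, with 0 counts in (R)-9b, has no ratio and is not drawn. All 10 ATF4 list genes lie below 0, the detoxification list has its median at 0.51, and TXNIP lies at 4.68.

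In the thioredoxin and peroxiredoxin list 8 of 14 genes were higher and 4 lower, with a median log2 ratio of 0.11. TXN, the thioredoxin that TXNRD1 reduces, had 5638 counts in vehicle and 5863 in (R)-9b (log2 ratio 0.29, 95% interval 0.24 to 0.35), against -0.46 for its reductase. PRDX1, whose overoxidized form SRXN1 repairs, had a log2 ratio of 0.62, and PRDX5 had -0.44. TXNIP, the thioredoxin-binding inhibitor, had 147 counts in vehicle and 3188 in (R)-9b, a 25.6-fold higher scaled value (log2 ratio 4.68). Of the other thioredoxin reductases, TXNRD3 was higher (914 and 1249 counts, log2 ratio 0.69) and TXNRD2 had a log2 ratio of -0.04 with an interval that included 0. These reductases were added after their values were seen. With TMM scaling TXNRD1 was thus the only one of the 3 reductases with an interval below 0. The interval of TXNRD2 ended at 0.0079. Scaling by total counts moves every log2 ratio by -0.06, so under it the interval of TXNRD2 lay below 0 too.

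Of the NADPH supply genes 3 of 13 tested were higher and 7 lower, with a median log2 ratio of -0.09. NADK, which makes NADP from NAD, had a log2 ratio of 0.43. IDH1, which like ME1 makes NADPH in the cytosol, had a log2 ratio of -0.51. MTHFD2, a mitochondrial folate enzyme, had 18037 counts in vehicle and 5065 in (R)-9b (log2 ratio -1.59). ME1, IDH1 and MTHFD2 were thus lower while NADK was higher.

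In haem and iron 4 of 11 genes were higher and 7 lower, with a median log2 ratio of -0.07, and HMOX1 was the lowest of them. HMOX2, the constitutive heme oxygenase, had 5409 counts in vehicle and 6280 in (R)-9b (log2 ratio 0.45). BLVRB, biliverdin reductase B, had a log2 ratio of -0.39. The ferritin chains that store iron had log2 ratios of -0.07 (FTH1) and -0.27 (FTL), and the transferrin receptor TFRC had 11978 and 22132 counts (log2 ratio 1.12).

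NRF2 is also known for inducing quinone and carbonyl detoxification genes, and 11 of 17 tested in that list were higher and 4 lower, with a median log2 ratio of 0.51. NQO1, a quinone reductase commonly used to read NRF2 activity, had 4268 counts in vehicle and 6368 in (R)-9b (log2 ratio 0.82, 95% interval 0.76 to 0.87), opposite in sign to GCLC, GCLM, TXNRD1, ME1 and HMOX1. AKR1C1 had 26 and 216 counts (log2 ratio 3.29) and AKR1C2 had 54 and 252 (log2 ratio 2.46), and reads of these near-identical paralogs may be assigned to either or left out. OSGIN1 and UGDH, with log2 ratios of -0.62 and -0.29, were lower. In superoxide and hydrogen peroxide removal 4 of 6 genes were higher, among them SOD2 (log2 ratio 0.80) and CAT (0.18), and PARK7 was lower (-0.04). Genes of these lists, which were written by function and not as lists of NRF2 targets, thus lay on both sides of 0.

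The ATF4 list holds ATF4 and genes that share regulation by ATF4 with SLC7A11. All 10 were lower in (R)-9b, 8 of them beyond 2-fold, with a median log2 ratio of -1.35. Of all genes tested 9.53% were lower beyond 2-fold. With estimated transcript counts 9 of the 10 were called lower. ATF4 itself had 73113 counts in vehicle and 27486 in (R)-9b (log2 ratio -1.17), and TRIB3, a pseudokinase induced by ATF4, had 46870 and 6284 (log2 ratio -2.66). SLC7A11, with -1.67, lay within the range of this list (-2.66 to -0.63), as did HMOX1, whereas GCLC, GCLM, TXNRD1 and ME1 lay above it. The range is wide and also held SQSTM1 (-1.06), BACH1 (-0.78) and MAFF (-2.14) of the NRF2 control list. SLC3A2 (-1.74), CTH (-1.87) and MTHFD2 (-1.59) of other lists lay within it too. Which of these genes ATF4 regulates was not examined here. A place within the range does not by itself assign a gene to ATF4, and a part of ATF4 in these ratios was not tested. Earlier results of these data had shown genes of this stress response to be lower before the list was written, so it is not independent evidence of its direction.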

How the data were processed

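RNA sequencing of 2 libraries of C4-2B cells was used, grouped by the treatment label. Per the submitters' processing notes, the authors used STAR 2.5.1a, featureCounts 1.4.6-p5, Salmon 0.8.2, edgeR and limma with hg38. The methods of the paper name another STAR version and an Ensembl release, and which was used for these counts is not known here. The authors deposited gene counts, whole numbers without normalization, from uniquely aligned unambiguous reads. They also deposited gene CPM, moderated log2 CPM and estimated counts of transcripts, which were used as alternatives. The authors' transcript CPM and log2 transcript tables were not used here.

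Gene counts were scaled by TMM (edgeR 4.0.16, R 4.3.3). Ratios are (R)-9b over vehicle with exact (Clopper-Pearson) 95% intervals (Python 3.11.15, scipy 1.17.1, numpy 2.4.6, pandas 2.3.3), and no p-value was computed. The intervals cover counting error only. Genes with fewer than 10 counts over both libraries were left out. Levels were divided by merged exon length in GENCODE 29, whose release may differ from the one used for counting. GCLC, for example, has 15 transcripts in GENCODE 29 and 14 stated by the authors. Even counts made up 72.2% (vehicle) and 70.3% ((R)-9b) of genes with 1 to 20 counts, so both mates may have been counted and counts were also halved. Scaling by total counts, DESeq2 1.42.0 size factors and upper quartile, 5 added counts and other minimum counts were further alternatives. No fold was given for genes with at most 3 counts in either library.

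Named genes were the 9 members, 13 pathway genes chosen by function, and in each of 9 lists the 2 highest and 2 lowest genes with at least 50 counts, ranked by the interval end nearest 0. Some genes that this rule covers are not reported here. Members and lists were chosen with earlier results of these data known. The scripts were tested on simulated data. Figures were drawn with matplotlib 3.10.9.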

Additional observations from a re-analysis of the deposited data

How the results depend on the processing

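Among the 9 genes, the 8 with an interval apart from 0 kept their sign under every alternative run, and KEAP1 ranged from -0.06 to 0.05 in log2 ratio. Of 280 values computed under other scalings, tables, minimum counts, halved counts or added counts, 257 stayed within the error of the main value or within 1.5 times the main count, and 23 moved further. HMOX1 ranged from -1.73 to -1.63 in log2 ratio and SLC7A11 from -1.73 to -1.63, and both stayed beyond 2-fold lower. With halved counts 0 of the 9 genes were higher, since the interval of SRXN1 then included 0, beside 23.9% of all genes tested. Lower with halved counts were 7 of the 9, beside 25.4% of all genes tested. Genes lower in glutathione use and recycling numbered 8 with total counts and 3 with estimated transcript counts, against 5. NADPH supply had 5 genes higher with upper quartile scaling, against 3. Haem and iron had 4 genes lower and 5 higher with estimated transcript counts, against 7 and 4. In superoxide and hydrogen peroxide removal 0 genes were lower with upper quartile scaling, estimated transcript counts or halved counts, against 1. The causes of these shifts were not tested. The value of SRXN1-201 was an alternative chosen after seeing the data. No paired analysis was possible because each condition had 1 library, and for the same reason no library could be left out. Depth limits SRXN1 most among the 9 genes, and the spread between cultures is unknown.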

Other observations

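Other annotated genes lie within or overlap the loci of the 9 genes. AC011461.1, inside an intron of KEAP1, had 0 counts in vehicle and 13 in (R)-9b. AGPS, a protein-coding gene on the opposite strand that shares 54 exon bases with NFE2L2, had 2292 and 1605 counts. AC079305.1, antisense to NFE2L2, had 41 and 18 counts, and AL033397.2, antisense to GCLC, had 9 and 18. RPL18AP3, a processed pseudogene of a ribosomal protein within TXNRD1 that shares no exon base with it, had 5730 counts in vehicle and 4017 in (R)-9b. GSTP1, a glutathione transferase known for being silenced by promoter methylation in prostate cancer, had 0 counts in vehicle and 2 in (R)-9b, both at or below the 3 counts used as a floor. These genes were named after their values were seen.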
